A study of Mus musculus with 9 samples.

Results

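The genes described here were 9 genes of the mesothelium, the single layer of cells that covers the liver and the other organs of the body cavities. They were Msln, Muc16, Upk1b, Upk3b, Gpm6a, Lrrn4, Dmkn, Prg4 and Bnc1, 9 of 30869 gene symbols on the array, and all 17 probes that carried their symbols were used, of 45281 on the array. They were chosen with their levels on these arrays known, as genes far higher in WT1-positive than in WT1-negative cells, so their differences from WT1-negative cells are given as a description only. Expression was read from 9 bead arrays (Illumina, MouseWG-6 v2.0) of activated hepatic stellate cells (aHSCs), the scar-forming cells of the liver, with 3 arrays in each of 3 groups. All the mice were C57/Bl6, male per the labels, and WT1GFP/+, with green fluorescent protein (GFP) at 1 copy of the gene for WT1. WT1 is a transcription factor of mesothelium that the study also found in part of the aHSCs after injury. The WT1-high (GFP high) and WT1-intermediate (GFP low) cells were sorted directly from livers injured with carbon tetrachloride, whereas the WT1-negative (GFP negative) cells were sorted after 7 days in culture on plastic. The study describes its cells activated in culture as taken from uninjured livers. WT1 status, injury and origin in liver or culture therefore cannot be told apart in either comparison with WT1-negative cells. Every group lacked 1 intact WT1 copy, and GFP reported the WT1 locus rather than the protein. The in vivo arrays came from 3 animals.

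Mesothelial cells carry a coat of membrane glycoproteins and release lubricants, which together let organ surfaces slide past each other. Mesothelin (Msln) is a lipid-anchored surface protein, and mucin 16 (Muc16), a very large transmembrane mucin also known as CA125, is its binding partner. Uroplakins 1b and 3b (Upk1b, a tetraspanin, and Upk3b) are membrane proteins related to those that line the bladder. Gpm6a is a membrane glycoprotein of the proteolipid family, best known from neurons, and Lrrn4 is a membrane protein with leucine-rich repeats. Dermokine (Dmkn) and lubricin (Prg4) are secreted. Basonuclin 1 (Bnc1) is a zinc finger protein of the nucleus, so it is neither a surface nor a secreted product and only shares the tissue. The study traced a part of the stellate cells, not all of them, to the embryonic mesothelium.

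A bead array reads each gene through probes of 50 bases, and 5 of the 9 genes had more than 1 probe. The probes of 1 gene shared no run longer than 6 bases, so each read a separate stretch of the transcript. Those of Upk3b and Prg4 are shown whole because their probes can be followed side by side on the same arrays, and the first 30 bases of those of Dmkn because this gene alone passed the test between the in vivo groups. They are numbered from the brightest, as the files give them, 5′ to 3′.
Upk3b probe 1: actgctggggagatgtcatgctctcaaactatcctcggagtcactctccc
Upk3b probe 2: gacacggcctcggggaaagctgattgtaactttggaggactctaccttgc
Upk3b probe 3: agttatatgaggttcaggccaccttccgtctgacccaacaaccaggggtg
Prg4 probe 1: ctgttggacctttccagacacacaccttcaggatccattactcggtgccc
Prg4 probe 2: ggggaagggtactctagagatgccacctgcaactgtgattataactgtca
Dmkn probe 1, first 30 bases: gcggactcctcacgaatgcacacaggtctt
Dmkn probe 2, first 30 bases: cgggcacaacctggcctgctgaagtggctg
Dmkn probe 3, first 30 bases: atgatgtgcgcatggccggaggatctggga

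Levels are normalized log2 intensities, on which 1 unit is a 2-fold change. A constant of 16 was added before the logarithm, so that differences of dim probes are understated, and levels of different probes cannot be compared with each other. A probe was called detected where its deposited detection p-value was under 0.05. The lowest level of a detected probe lay between 4.48 and 4.65 on the 9 arrays. Mean raw intensity ranged from 147 to 289 per array and 17253 to 19774 probes were detected. All 9 genes were tested, since the brightest probe of each was detected on all 6 in vivo arrays. Of the 17 probes, 15 passed the detection filter, 13 were detected on all 6 in vivo arrays, and 11 on no WT1-negative array. The labels do not say that the WT1-negative arrays came from separate cultures, and p-values measure the spread between these arrays only.

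All 9 genes were brightest in WT1-high cells, next in WT1-intermediate cells, and at or close to background in WT1-negative cells. The brightest probe of 5 genes (Muc16, Dmkn, Gpm6a, Lrrn4 and Prg4) was detected on none of the 3 WT1-negative arrays, that of Msln and Bnc1 on 1, that of Upk1b on 2 and that of Upk3b on all 3. Over the 4 genes detected on at least 1 WT1-negative array, the difference from WT1-negative cells ranged from 4.28 (Bnc1) to 7.43 (Upk1b) log2 units in WT1-high cells and from 3.95 (Bnc1) to 6.97 (Upk1b) in WT1-intermediate cells. The other 5 have only bounds, from at least 56.5-fold to at least 347-fold in WT1-high cells and from at least 41.8-fold to at least 203-fold in WT1-intermediate cells. The median over the 9 genes was 7.13 in WT1-high cells, also with those 5 at their bounds, and 6.55 in WT1-intermediate cells, or 6.51 with the bounds. No gene overlapped between either in vivo group and the WT1-negative group. Over all 20573 probes tested, every WT1-high array was above every WT1-negative array for 30.7% and every WT1-intermediate array for 28%. Both comparisons used the same WT1-negative arrays, and the genes were chosen on them. In bulk samples such as these, fewer cells of a type and less RNA per cell cannot be told apart.

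**Figure D1:**
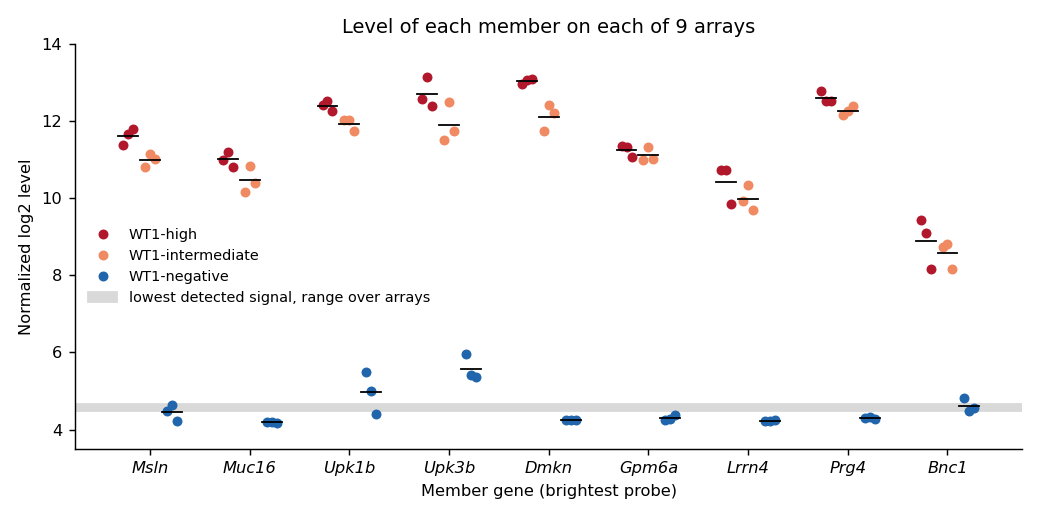
Normalized log2 level (vertical axis) of the brightest probe of each of the 9 genes (horizontal axis) on each of the 9 arrays. Points are single arrays, black bars are group means of 3 arrays, and the grey band is the range over arrays of the lowest level of a detected probe (4.48 to 4.65). The in vivo points lie between 8.16 and 13.15, and the WT1-negative points between 4.17 and 5.95.

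Dmkn separated the in vivo groups most clearly. Its brightest probe read 12.97, 13.07 and 13.08 in WT1-high cells (replicates 1, 8 and 29), 11.74, 12.41 and 12.21 in WT1-intermediate cells (replicates 1, 8 and 30), and 4.24, 4.25 and 4.25 in WT1-negative cells (replicates 3, 11 and 14). The raw intensities were 8770, 9760 and 9450, then 2530, 5370 and 2590, then 91.8, 91.6 and 93.5. The 3 WT1-high arrays lay within 0.11 of each other and all above the WT1-intermediate arrays, while the WT1-negative arrays were dimmer than their own detection limit. Dmkn was higher in WT1-high cells than in WT1-intermediate ones by 0.92 log2 units (SE 0.17, 1.9-fold, limma adjusted p = 0.0159). It was the only 1 of the 9 genes called, against 0.904% of all probes tested called higher and 2.64% called lower. Compared with WT1-negative cells, the probe was at least 347-fold brighter in WT1-high and at least 183-fold brighter in WT1-intermediate cells, taking the lowest detected level as the bound. The call for Dmkn was lost without WT1-high replicate 8 (limma adjusted p = 0.0546) or 29 (adjusted p = 0.0537), with cyclic loess (adjusted p = 0.0684), with only the in vivo arrays in the fit (adjusted p = 0.0595) and with the mean of its probes (adjusted p = 0.0568).

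The other probes of Dmkn differed in how far they followed. Probe 2 read 12.62, 12.57 and 12.63 in WT1-high cells and 11.70, 12.15 and 12.14 in WT1-intermediate cells, with no overlap and a difference of 0.61 (SE 0.15, limma adjusted p = 0.0556). It was at least 257-fold brighter in WT1-high cells than in WT1-negative ones. Probe 3 lay near background throughout, at 4.87, 5.05 and 5.06 in WT1-high, 4.56, 5.07 and 4.38 in WT1-intermediate and 4.45, 4.38 and 4.28 in WT1-negative cells. Thus 2 of the 3 stretches of Dmkn were bright in vivo and the third was barely above the limit of detection. The Dmkn entries of the RefSeq table started at 3 positions, the first and last 12649 bases apart.

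The 250 bases before the first and the last of those starts, from RefSeq on build GRCm38.p6, plus strand, are shown because Dmkn was the gene that passed the test and because its starts differ. The window chr7:30763506-30763755 lies before the first start and chr7:30776155-30776404 before the last.
Dmkn, first start: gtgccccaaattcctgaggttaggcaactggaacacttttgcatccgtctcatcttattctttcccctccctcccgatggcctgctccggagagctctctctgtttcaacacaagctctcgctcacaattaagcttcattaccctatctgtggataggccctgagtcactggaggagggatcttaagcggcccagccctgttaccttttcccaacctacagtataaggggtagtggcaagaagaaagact
Dmkn, last start: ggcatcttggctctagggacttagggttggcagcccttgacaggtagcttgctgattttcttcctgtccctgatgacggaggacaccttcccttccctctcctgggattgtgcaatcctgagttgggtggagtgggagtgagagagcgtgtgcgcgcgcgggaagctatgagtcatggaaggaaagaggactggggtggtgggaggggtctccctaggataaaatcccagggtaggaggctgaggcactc
The letters GCGNGGGCG, a site shared by WT1 and the EGR factors, were searched on both strands. They were in none of the 9 such windows of 6 of the genes (Muc16, Upk3b, Dmkn, Gpm6a, Lrrn4 and Bnc1) and in 4.7% of 32851 windows of the same length. TATAAA, the core of a TATA box, was in 1 of the 2 windows of Gpm6a and no other, against 12.4% of all windows.

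Msln, the lipid-anchored surface protein, was next in the order of significance but did not pass the test. It read 11.38, 11.66 and 11.79 in WT1-high cells, 10.82, 11.14 and 11.01 in WT1-intermediate cells and 4.49, 4.63 and 4.22 in WT1-negative cells. Every WT1-high array was above every WT1-intermediate array, and the difference was 0.62 (SE 0.17, 95% interval 0.24 to 0.99, limma adjusted p = 0.0755). Its single probe was 7.16 log2 units brighter in WT1-high cells than in WT1-negative ones. Muc16, its binding partner, read 11.00, 11.20 and 10.82 in WT1-high cells, 10.16, 10.84 and 10.41 in WT1-intermediate cells and 4.20, 4.19 and 4.17 in WT1-negative cells. WT1-intermediate replicate 8 lay just above the lowest WT1-high array, and the difference was 0.54 (SE 0.18, 95% interval 0.13 to 0.94, limma adjusted p = 0.152). Muc16 was at least 84.6-fold brighter in WT1-high and at least 58.3-fold brighter in WT1-intermediate cells than in WT1-negative ones.

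The uroplakins were bright in both in vivo groups and were the members most often detected in WT1-negative cells. Upk1b read 12.41, 12.53 and 12.25 in WT1-high cells, 12.03, 12.02 and 11.76 in WT1-intermediate cells and 5.49, 5.00 and 4.40 in WT1-negative cells. The in vivo groups did not overlap, but the difference of 0.46 (SE 0.24, 95% interval -0.06 to 0.98) did not pass the test (limma adjusted p = 0.353). The spread of the WT1-negative arrays (SD 0.54, against 0.14 and 0.16 in the in vivo groups) entered that fit. Upk1b was also not called with only the in vivo arrays in the fit (limma adjusted p = 0.221), nor with the animal as a fixed block there (adjusted p = 0.102). A second Upk1b probe was detected on no array. Upk3b read 12.57, 13.15 and 12.40 in WT1-high cells, 11.51, 12.48 and 11.74 in WT1-intermediate cells and 5.95, 5.43 and 5.35 in WT1-negative cells. Replicate 8 was the highest array in both in vivo groups, so that the groups overlapped, with a difference of 0.80 (SE 0.28, limma adjusted p = 0.162). Probes 2 and 3 of Upk3b gave 0.69 (adjusted p = 0.195) and 0.73 (adjusted p = 0.153, both limma) and the same array was highest on each. All 3 stretches of Upk3b shown above thus moved alike between arrays.

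Gpm6a and Lrrn4, the other membrane proteins, differed less between the in vivo groups. Gpm6a read 11.36, 11.33 and 11.06 in WT1-high cells, 10.99, 11.33 and 11.01 in WT1-intermediate cells and 4.25, 4.27 and 4.38 in WT1-negative cells. The 6 in vivo arrays lay within 0.38 of each other, the narrowest range of the 9 genes, and the difference was 0.14 (95% interval -0.19 to 0.48, limma adjusted p = 0.687). The brightest Gpm6a probe was at least 100-fold brighter in WT1-high cells than in WT1-negative ones, but its other probes lay at or near background on all arrays, 1 of them detected on none. Lrrn4 read 10.72, 10.72 and 9.84 in WT1-high cells, 9.93, 10.34 and 9.70 in WT1-intermediate cells and 4.21, 4.22 and 4.26 in WT1-negative cells. WT1-high replicate 29 fell within the WT1-intermediate range, and the difference was 0.43 (SE 0.24, limma adjusted p = 0.398).

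Prg4, the lubricant, was high in all in vivo cells. Its brighter probe read 12.77, 12.51 and 12.53 in WT1-high cells, 12.16, 12.26 and 12.39 in WT1-intermediate cells and 4.30, 4.31 and 4.28 in WT1-negative cells. The in vivo groups did not overlap, although the gap was only 0.12 and the difference of 0.33 (SE 0.14, limma adjusted p = 0.251) did not pass the test. It was at least 256-fold brighter in WT1-high and at least 203-fold brighter in WT1-intermediate cells than in WT1-negative ones. The dimmer Prg4 probe ordered the arrays differently, at 8.59, 7.47 and 8.04 in WT1-high and 7.99, 7.34 and 8.34 in WT1-intermediate cells. Its groups overlapped and its difference was 0.14 (SE 0.29, limma adjusted p = 0.847). The 2 stretches of Prg4 shown above therefore agreed on the contrast between in vivo and WT1-negative cells, where the dimmer was at least 10.8-fold brighter in WT1-high cells, and not on the order of the in vivo arrays.

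**Figure D2:**
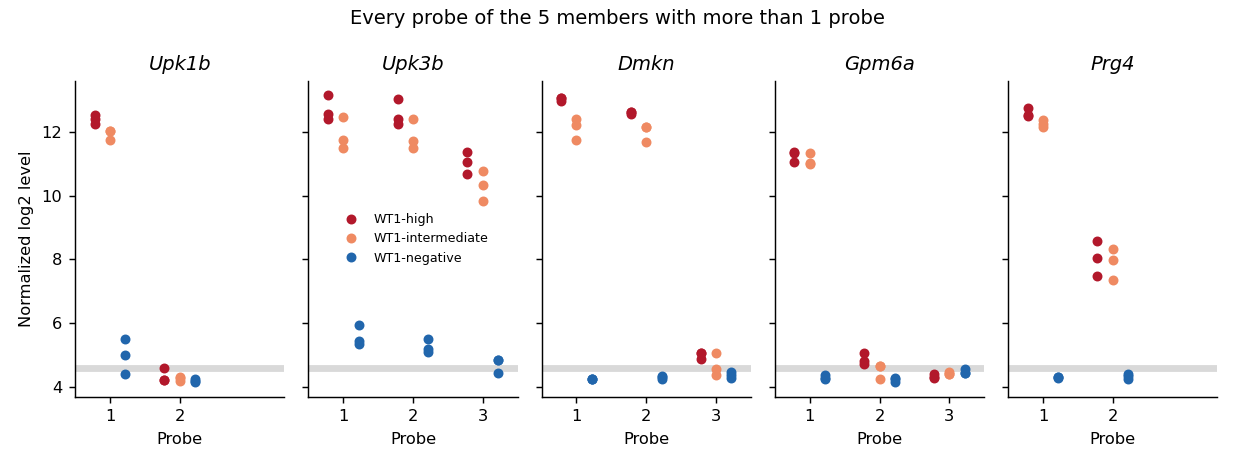
Normalized log2 level (vertical axis) of every probe of the 5 genes with more than 1 probe, numbered from the brightest (horizontal axis), with 1 point per array and the range of the lowest detected level in grey. Upk1b, Dmkn and Gpm6a each have at least 1 probe at or near background in every group, whereas the 3 probes of Upk3b are all bright in the in vivo groups.

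Bnc1, the nuclear member, had the widest spread within the in vivo groups of the 9 genes (pooled SD 0.54). It read 9.44, 9.10 and 8.16 in WT1-high cells, 8.73, 8.82 and 8.16 in WT1-intermediate cells and 4.82, 4.48 and 4.55 in WT1-negative cells. Replicates 29 and 30 were the lowest of their groups and equal to 2 decimals, and the difference between groups was 0.33 (SE 0.30, 95% interval -0.32 to 0.98, limma adjusted p = 0.62). When 1 array was left out in turn, the Bnc1 difference ranged from 0.06 (without WT1-high replicate 1) to 0.70 (without WT1-high replicate 29). That of Lrrn4 then ranged from 0.29 (without WT1-intermediate replicate 30) to 0.72 (without WT1-high replicate 29), and that of Gpm6a from 0.08 to 0.25 (without WT1-intermediate replicates 1 and 8).

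As a set, all 9 genes lay above 0 in WT1-high minus WT1-intermediate cells, with a median of 0.46 against 0.05 over all probes tested, and 7.24% of probes lay at or above 0.46. The genes were chosen on levels that included these in vivo arrays, so this comparison with all probes is not independent of the choice. Of the 9, 1 passed the test. In 4 of 9 (Msln, Upk1b, Dmkn and Prg4) every WT1-high array was above every WT1-intermediate array, as for 11.5% of all probes tested. Within animals, the median difference of the 9 genes was 0.72 for replicates 1, 0.37 for replicates 8 and 0.41 for replicates 29 and 30. All 9 were above 0 in each of the 3 animals, but Bnc1 in replicates 29 and 30 (0.00064) and Gpm6a in replicates 8 (0.0067) were close to 0. With the animal as a fixed block, 3 of 9 genes were called (Dmkn, Upk3b at limma adjusted p = 0.016 and Msln at adjusted p = 0.0393), where 2.44% of all probes were called higher. With the animal as a random block, 4 were called (these and Muc16, limma adjusted p = 0.0487), where 3.63% were. The WT1-high array of each animal also had the higher mean raw intensity, at 233 against 184, 289 against 221 and 231 against 147. The part of this in the differences was not tested beyond the choice of normalization. Of all probes called between the in vivo groups, 25.5% were higher in WT1-high cells, but 95.5% were when arrays were scaled to the median of all probes and 37.7% without background correction. The first of these scalings moved the median of all probes to 0.45 and that of the 9 genes to 1.11, which is 0.66 above all probes, compared with 0.41 above them in the main analysis.

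**Figure D3:**
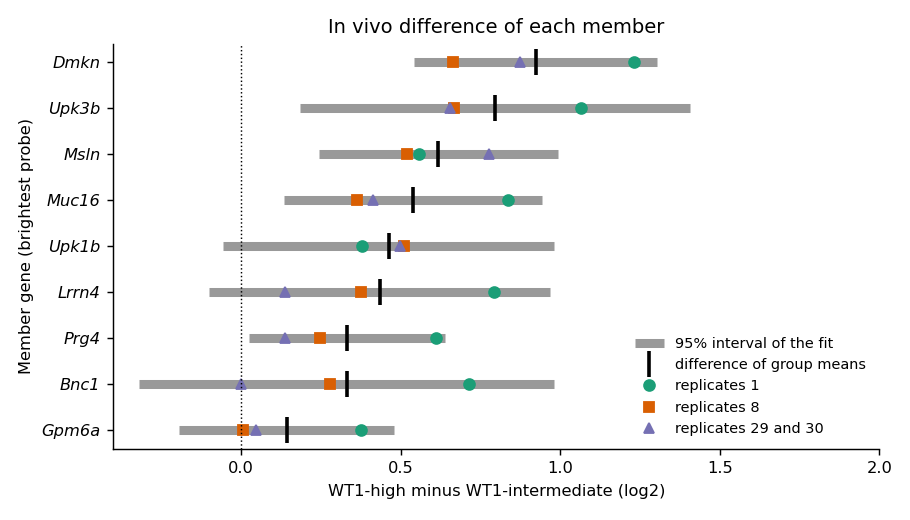
Difference between WT1-high and WT1-intermediate cells in log2 units (horizontal axis) for the brightest probe of each gene (vertical axis). Coloured points are the differences within the pairs of arrays with replicate numbers 1, 8, and 29 with 30, black ticks are differences of group means, and grey bars are the 95% intervals of the fit; Dmkn (0.92) is at the top and Gpm6a (0.14) at the bottom, and all ticks lie above 0.

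**Figure D4:**
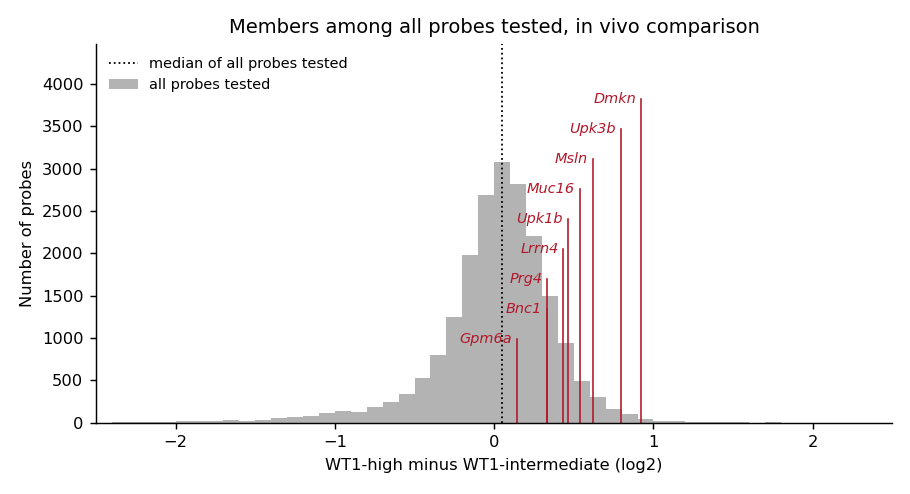
Number of probes (vertical axis) by difference between WT1-high and WT1-intermediate cells in log2 units (horizontal axis), for the 20573 probes tested, few of which lie beyond the axis ends, with the 9 genes as red lines whose heights have no meaning. The 9 genes lie between 0.14 and 0.92, to the right of the median of all probes (0.05).

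A list of other genes of mesothelium held 21 genes, of which 18 were matched on the array and 15 passed the detection filter. It held simple epithelial keratins, junction and adhesion genes, and secreted proteins. All 15 were called higher in WT1-high cells than in WT1-negative ones and 14 in WT1-intermediate cells, where 26.5% and 24.4% of all probes were called higher and 33.1% and 33.6% lower. The exception was Podxl, a sialomucin, at 0.04 (limma adjusted p = 0.861). Krt19, a keratin of simple epithelia, read 10.59, 10.76 and 10.50 in WT1-high and 9.57, 10.28 and 10.06 in WT1-intermediate cells and was detected on no WT1-negative array, so that its differences are bounds. Krt19 was at least 64.6-fold brighter in WT1-high and at least 41.3-fold brighter in WT1-intermediate cells. Krt19, Rspo1 and Efemp1, detected on no WT1-negative array, passed the filter only through the in vivo arrays, so their calls are a description only. Cldn15, a tight junction protein, differed by 6.10 and 5.58, and Slpi, a secreted protease inhibitor, by 6.05 and 6.25 log2 units. Krt8, Krt7 and Krt18, further keratins of simple epithelia, differed by 4.76, 4.75 and 4.57 in WT1-high cells and by 4.23, 4.05 and 4.29 in WT1-intermediate cells. Calb2 (calretinin), Krt5 and Itln1 are also known from mesothelium and did not pass the filter. Calb2 was detected on 1 WT1-negative array, Krt5 and Itln1 on none of the 9. Wt1, Pdpn and Ezr were not analysed here.

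Between the in vivo groups none of the 15 was called by limma, where 0.904% of all probes were called higher in WT1-high cells. At an unadjusted p under 0.05 there were 7, all higher in WT1-high cells. The share of all probes at that limit was not taken, so this count has no background to be read against. The median difference of the 15 was 0.30 against 0.05 over all probes. The largest was that of Aldh1a2, a retinoic acid synthesising enzyme, at 1.11 (adjusted p = 0.0822, limma). It read 7.76, 7.63 and 7.68 in WT1-high and 6.11, 7.10 and 6.52 in WT1-intermediate cells, which did not overlap. With the animal as a fixed block 3 of the 15 were called higher in WT1-high cells (Aldh1a2, Krt7 and Podxl), as were 2.44% of all probes. As a random block 4 were, Krt19 being added, where 3.63% of all probes were.

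Relatives and neighbours of the 9 genes did not form a uniform group. Of 16, 8 passed the filter. The mesothelin relatives Mslnl, Otoa and Strc and the uroplakins Upk2 and Upk3a were detected on no array, and Upk1a on 2 of 9. Mslnl is the RefSeq neighbour of Msln, and Sbsn and Krtdap lie on either side of Dmkn. Sbsn, which encodes suprabasin, a secreted protein of skin, differed from WT1-negative cells by 3.66 and 3.68 log2 units in the in vivo groups (limma adjusted p = 1.14e-06 and 1.34e-06), and between them by only -0.02 (adjusted p = 0.979). Krtdap, a secreted protein of keratinocytes, ran opposite to Dmkn. It read 4.43, 4.55 and 4.47 in WT1-high cells, where it was detected on 1 of 3 arrays, and 6.15, 4.89 and 6.06 in WT1-intermediate cells, a difference of -1.22 (SE 0.27, limma adjusted p = 0.0344), and replicate 8 was the lowest WT1-intermediate array. Krtdap was at least 2.14-fold brighter in WT1-intermediate cells than in WT1-negative ones. Its call between the in vivo groups was lost when any 1 WT1-high array (replicates 1, 8 and 29), WT1-intermediate array 1 or 30, or WT1-negative array 3 or 14 was left out, and held without WT1-intermediate array 8 or WT1-negative array 11. Of the other relatives, Lrrn2 (at least 2.51-fold and 2.84-fold) and Bnc2 (1.71 and 1.46 log2 units) were higher in WT1-high and WT1-intermediate than in WT1-negative cells, whereas Lrrn1 was lower (-0.88 and -1.14). Muc1, a smaller transmembrane mucin, was higher in both (0.53 and 0.59).

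Genes whose levels followed the 9 most closely were named by Pearson correlation with the mean of the 9, each centred on its own mean, among 14650 genes. Over all 9 arrays the closest were Smpd3, LOC100044177, Cldn15, Lmo7, Hdc, Lrrc1, Epb4.1l4b, Tspan8, Krt19 and Prss12, with r from 0.998 to 0.9992. These arrays span the contrast between in vivo and cultured cells, and 173 genes reached 0.99. Over the 6 in vivo arrays, which came from 3 animals, the closest were Ppl, Rnf128, Gm1587, Dpysl5, Ppapdc2, Sez6l, Mobkl2c, E130308A19Rik, D1Ertd471e and Fgfr2, with r from 0.9883 to 0.9977, and 189 genes reached 0.95. Ppl, which encodes the cell junction protein periplakin, led that list. Rnf128 (WT1-high mean 4.60, WT1-intermediate mean 4.31) and Gm1587 (4.95 and 4.58) lay near the lowest detected level, 4.48 to 4.65. Rnf128 (6.41), Gm1587 (5.53), E130308A19Rik (5.96) and, narrowly, Ppapdc2 (7.33) were brightest in WT1-negative cells, unlike the 9 genes. Ppl, Dpysl5, Sez6l, Mobkl2c, D1Ertd471e and Fgfr2 had their highest mean in WT1-high cells. With so few arrays these correlations are descriptions of likeness only.

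The labelled cell type was checked against its markers. Of 16 stellate cell genes, 12 passed the filter, but Rgs5, Gfap and Lhx2 were detected on no array and Lrat, which stores retinoids as esters, on 1 of 9, while Dcn (13.21, 13.53 and 10.95 as group means in WT1-high, WT1-intermediate and WT1-negative cells) and Acta2 (11.23, 10.47 and 13.01) were bright. Between the in vivo groups Des and Acta2 were higher in WT1-high cells (1.40 and 0.76) and Pdgfrb and Hgf lower (-1.28 and -1.16). The stellate list summed to 17800 to 18300 linear units in WT1-high, 16900 to 21300 in WT1-intermediate and 12700 to 15000 in WT1-negative cells, but without Dcn, its gene with the highest mean, to 8310 to 8920, 5340 to 7420 and 11300 to 12100.

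Markers of other cells also differed between the groups, not all of them in the order of the 9 genes. Of 18 macrophage genes, 17 passed, Cd5l being detected on no array. In WT1-high cells 12 were called lower than in WT1-intermediate ones, as were 2.64% of all probes tested. The list summed to 5500 to 8630 linear units in WT1-high, 17400 to 28500 in WT1-intermediate and 61500 to 66200 in WT1-negative cells. C1qa, a complement component of macrophages, read 6.14, 6.54 and 6.35, then 9.22, 9.17 and 9.14, then 11.63, 12.00 and 11.70, the reverse of the order of the 9 genes. Not all macrophage genes ran this way. In WT1-intermediate cells 8 were called lower than in WT1-negative ones and 4 higher, where 33.6% and 24.4% of all probes were. The 4 were Clec4f, Marco, Vsig4 and Timd4, and their means were highest in WT1-intermediate cells. Clec4f and Timd4 were detected on no WT1-negative array. Of 10 portal fibroblast genes, 9 passed and 3 were lower in WT1-high cells than in WT1-intermediate ones (Pi16, Dpt and Mfap5), with sums of 4500 to 6410, 7040 to 12000 and 2000 to 3120, and Gli1 was detected on no array. All 12 endothelial genes passed, 3 were lower in WT1-high cells (Tek, Stab2 and Eng), and they summed to 1200 to 1590, 2040 to 2390 and 1470 to 1980, but without Clec4g to 557 to 688, 958 to 1060 and 1380 to 1890. Of 7 lymphocyte genes matched, 6 passed and none was called by limma between the in vivo groups (1 at an unadjusted p under 0.05). In each in vivo group 5 were called higher than in WT1-negative cells, where 26.5% (WT1-high) and 24.4% (WT1-intermediate) of all probes were. Of these, Cd3e, Cd2 and Nkg7 were detected on no WT1-negative array and passed only through the in vivo arrays. The lymphocyte list summed to 511 to 759, 488 to 881 and 150 to 157, and Ms4a1 was detected on no array. The other mesothelial genes summed to 28000 to 28900, 23700 to 27700 and 1040 to 1220. The part of these cells in the differences of the 9 genes was not tested.

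**Figure D5:**
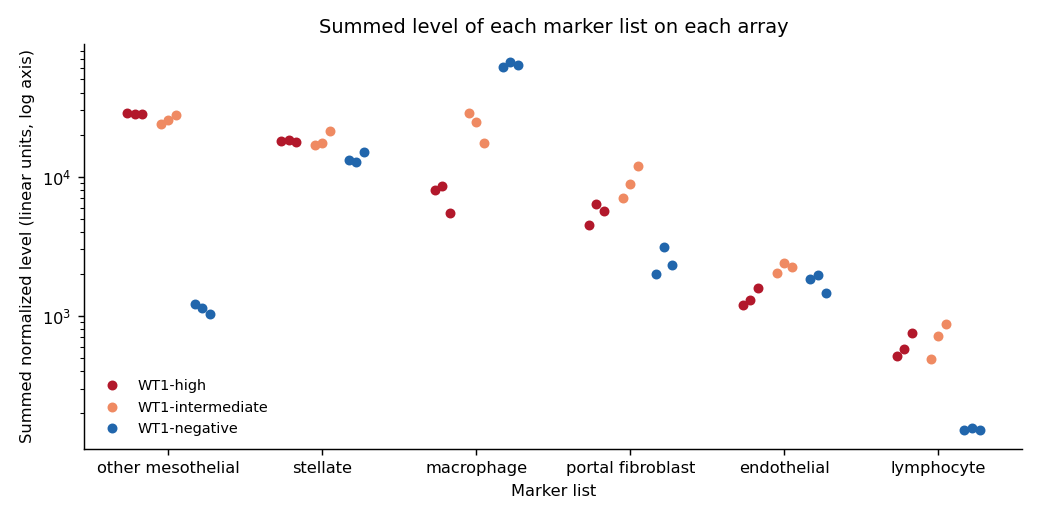
Summed normalized level in linear units (vertical axis, log scale) of 6 marker lists (horizontal axis) on each of the 9 arrays, 1 point per array. The other mesothelial list is highest in WT1-high cells (28000 to 28900) and the macrophage list in WT1-negative cells (61500 to 66200).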

How the data were processed

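RNA of sorted cells was hybridised to bead arrays, 1 array per sample. The authors exported summary probe profiles from BeadStudio, so the deposited intensity values were linear and neither background corrected nor normalized. Each came with a deposited detection p-value against the array's 936 negative control probes. Arrays have no read depth; their number limits the precision. Here, intensities were corrected with negative controls, quantile normalized together with all control probes and log2 transformed (neqc, offset 16, limma 3.58.1, R 4.3.3). Probes detected (p-value under 0.05) on at least 3 of 9 arrays were kept (20573 of 45281). The 3 groups were fitted without a block, which the study's methods do not mention (lmFit and eBayes, 6 residual and 5.19 prior degrees of freedom), with two-sided tests and Benjamini-Hochberg adjustment over all kept probes and a threshold of 0.05. Each gene was represented by its probe with the highest mean. Folds against a group with no detected array are bounds, set against the lowest detected level of each array.

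The 9 genes and the lists were chosen with earlier results of these data known, and so were the tests. Named genes were the 9 genes; in the lists of other mesothelial genes and relatives, those called between the in vivo groups and up to 6 with the largest differences from WT1-negative cells; the 10 closest by correlation; and defining markers. Other genes of these lists that are named (Aldh1a2, Podxl, Rspo1, Efemp1 and those not detected) were chosen after their values were seen. Symbols matched 115 genes of the lists and Entrez IDs another 2.

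The in vivo arrays with replicate numbers 1, 8, and 29 with 30 were taken as pairs, since a deposited column of a WT1-intermediate array carried 29 where its label gave 30, and the study used 3 animals. Deviations from the group means correlated at 0.35, 0.34 and 0.47 within these pairs and at -0.39 to 0.03 between others. With means of only 3 arrays, a positive value in 1 pair pulls the others down, so this contrast is in part built in. Alternatives changed the background correction, normalization, filter, samples, block, weights and probes, and left out each array.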

Additional observations from a re-analysis of the deposited data

How the results depend on the processing

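Each of the 9 genes stayed higher in WT1-high cells than in WT1-intermediate ones under every alternative that tested it, the lowest value being 0.06 (Bnc1); detection on all 9 arrays left only Upk3b tested. How many were called (1 of 9) and how many of the 15 other mesothelial genes (0) depended on the setting. In the main analysis 0.904% of all probes were called higher in WT1-high cells. Without background correction these were 2 and 1 (0.919% of all probes), and no relative was called (1 in the main analysis). An offset of 50 gave 2 of the 9 (0.977% of all probes) and 0 relatives, and cyclic loess 0 of the 9 (1.07%). Scaling to the median of all probes gave 5 and 9, but 12.5% of all probes were then called higher. Scaling to the median of the kept probes, chosen after seeing the data, gave 3 other mesothelial genes (1.66% of all probes). With no filter 0 relatives were called. Requiring detection on all 9 arrays left 0 of the 9 called, with a median of 0.80, and 0 relatives. With only the groups compared, 0 of the 9 and 0 relatives were called. The mean over probes gave 0 of the 9 and 1 other mesothelial gene (0.9% of all probes). The replicate block gave 3 of the 9 and 3 other mesothelial genes as a fixed term and 4 and 4 as a random one, and ended no call of these. With these blocks 2.44% and 3.63% of all probes were called higher. Leaving out 1 array gave 0 to 2 of the 9, 0 to 2 other mesothelial genes and 0 to 1 relatives. In those fits 0.259% to 1.29% of all probes were called higher.

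The median difference of the 9 genes from WT1-negative cells was 5.09 (WT1-high) and 4.65 (WT1-intermediate) without background correction, 5.82 and 5.38 with an offset of 50, and 6.20 and 5.77 as means over probes. For WT1-intermediate cells it was 6.85 with cyclic loess and 6.08 with scaling to the median of all probes. Leaving out 1 array gave 6.95 to 7.19 for WT1-high cells. Between the in vivo groups, scaling to the median of all probes gave 1.11. That scaling also lowered the share of calls that were higher in WT1-intermediate cells than in WT1-negative ones from 42.1% to 23.1%. The background correction and the offset change these values by construction; the other causes were not tested. The bead chip as a block was not run, because the column headers name no chip. Dim probes limit the folds against WT1-negative cells to bounds.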

Other observations

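Among 10 genes of bile duct epithelium, which shares keratins with mesothelium, 7 passed the detection filter. Cldn3, a tight junction protein, was higher in WT1-high cells than in WT1-intermediate ones by 1.43 log2 units (limma adjusted p = 0.000846), and higher than in WT1-negative cells by 4.09 and 2.66 in the in vivo groups. Its relatives Cldn7 and Cldn4 were not called between the in vivo groups (0.17 and -0.44). Against WT1-negative cells Cldn7 was lower in both (-0.52 and -0.69, limma adjusted p = 0.028 and 0.007). Cldn4 differed by -1.41 and -0.96 (limma adjusted p = 0.0561 and 0.176). Spp1, the secreted protein osteopontin, was lower in WT1-high cells than in WT1-intermediate ones (-2.03, limma adjusted p = 0.016). Epcam, a defining marker of that epithelium, was detected on no array. In WT1-high cells 3 were called higher than in WT1-negative ones (Cldn3, Sox9 and Cftr) and 2 lower (Spp1 and Cldn7). Over all probes 26.5% and 33.1% were. Sox9 differed by 0.95 log2 units (limma adjusted p = 0.00707). Cftr was detected on no WT1-negative array, passed the filter only through the in vivo arrays and was at least 1.25-fold brighter. In WT1-intermediate cells 1 was called higher (Cldn3) and 1 lower (Cldn7). The list summed to 1620 to 2090 linear units in WT1-high, 2590 to 8840 in WT1-intermediate and 6190 to 6950 in WT1-negative cells. Spp1 set this order, and without it the sums were 778 to 944, 463 to 632 and 323 to 597.

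Of 10 hepatocyte genes, 6 passed and none was called by limma between the in vivo groups (1 at an unadjusted p under 0.05). Alb was detected on no array, whereas Ttr and Apoa2, which encode plasma proteins, were higher in WT1-high cells than in WT1-negative ones (3.68 and 3.51 log2 units). Apoa1 was detected on no WT1-negative array and was at least 6.42-fold brighter in WT1-high cells. The list summed to 486 to 2100 linear units in WT1-high, 588 to 1610 in WT1-intermediate and 207 to 273 in WT1-negative cells.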
